A study of Mus musculus with 6 samples.

Results

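The *Dlk1*-*Dio3* imprinted domain was described through 6 genes of the 55401 in the deposited count table. These were the paternally expressed *Dlk1*, *Rtl1* and *Dio3* and the maternally expressed *Meg3*, *Rian* and *Mirg*, chosen by name as the annotated protein-coding genes and long non-coding transcripts that define the domain, and matched to Ensembl identifiers by symbol. All 6 passed the filter on low counts. The counts were summed over both parental alleles, so paternal and maternal expression is background knowledge here and was not measured.

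The samples were whole mouse embryos at E10.5, midgestation, on a C57BL/6J background. WT embryos carried an unmodified *Igf2* locus, and 5C embryos were littermates with a tandem array of 5 copies of the microRNA gene *Mir483* at the endogenous *Igf2* locus. Each genotype had 3 libraries, and each library was made from a pool of 2 male embryos, so p-values measure the spread between pools. The comparison asks how an excess of *Mir483*, transcribed where *Igf2* is active, alters the embryonic transcriptome. The array came through embryonic stem cells of the C57BL/6N strain and chimeric males. The number of stem cell clones behind these embryos is not given in the sources used here.

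Genomic imprinting silences a gene on the copy inherited from one parent, through DNA methylation laid down in the egg or sperm. In the *Dlk1*-*Dio3* domain a control element between *Dlk1* and *Meg3* is methylated on the paternal copy, which expresses the protein-coding genes. The unmethylated maternal copy expresses a chain of non-coding RNAs that carries one of the largest microRNA clusters and arrays of small nucleolar RNAs (snoRNAs) in the mouse genome. The domain is known for its role in growth, muscle, placenta and energy balance.

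In GRCm38 the domain ran for 828 kb on chromosome 12. *Dlk1* (ENSMUSG00000040856) lay at 109452823-109463336 on the plus strand and encodes a transmembrane and secreted relative of the Notch ligands. *Rtl1* (ENSMUSG00000085925), at 109589193-109600330, was the only member on the minus strand and encodes a retrotransposon-derived protein of fetal muscle and placental vessels. *Dio3* (ENSMUSG00000075707), at 110279068-110281097 on the plus strand, encodes the deiodinase that inactivates thyroid hormone. The non-coding genes shared the plus strand: *Meg3* (ENSMUSG00000021268) at 109541001-109571726, the snoRNA host *Rian* (ENSMUSG00000097451) at 109603940-109661716, and the microRNA host *Mirg* (ENSMUSG00000097391) at 109729764-109749460. *Meg3* began 77.7 kb after the end of *Dlk1*, whereas *Dio3* began 529.6 kb after the end of *Mirg*.

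*Rtl1* has no intron within its coding sequence, and the maternally expressed transcript of the opposite strand carries 6 annotated microRNA hairpins under its exons. RefSeq held 58 hairpins and 114 mature microRNAs of the domain, 106 of them on the plus strand. The mature set held 104 different seeds, the bases 2 to 8 that pair with targets. One seed was that of both copies of miR-3070-5p, and 9 seeds were shared by a pair of microRNAs with different names, such as AUGUAAC in miR-379-3p and miR-411-3p. A search of all 114 for a complete complement in the *Rtl1* transcript found 11, from the 6 hairpins, all inside the coding sequence. One arm of each hairpin is shown because these are the products that can pair with *Rtl1* along their whole length. The sequences are RefSeq's, on GRCm38.p6, and capitals mark the seed.
mmu-miR-431-5p: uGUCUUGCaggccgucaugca
mmu-miR-433-3p: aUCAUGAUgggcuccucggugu
mmu-miR-127-3p: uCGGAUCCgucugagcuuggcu
mmu-miR-434-3p: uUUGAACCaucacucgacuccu
mmu-miR-432: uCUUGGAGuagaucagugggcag
mmu-miR-136-5p: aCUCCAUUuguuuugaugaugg
On chromosome 12, plus strand, miR-431-5p lay at 109590459-109590479 and miR-136-5p at 109595331-109595352. The others lay between them. Read along the minus strand, the complement of miR-136-5p began at base 199 of the *Rtl1* transcript and that of miR-431-5p at base 5072.

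The microRNAs made from *Mir483* are shown because they are the products of which the 5C array carries extra copies. None of the 114 mature microRNAs of the domain shared a seed with either of them.
mmu-miR-483-3p: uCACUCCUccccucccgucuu
mmu-miR-483-5p: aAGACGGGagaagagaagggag
A complement of the miR-483-3p seed (AGGAGTG, read on the transcript strand) was present in 2 of the 6 members, *Meg3* with 2 matches in exons of its longest forms and *Mirg* with 1. Any annotated transcript held this match in 34.9% of the 16770 tested genes with a transcript sequence. *Rtl1* alone held a complement of the miR-483-5p seed (CCCGTCT), inside its coding sequence, against 11.7% of the tested genes. The coding genes *Dlk1* and *Dio3*, and the non-coding *Rian*, held neither. The matching stretches are shown with the match in capitals. A match is a run of letters and was not tested as a binding site.
Meg3 first match: taaatattgaaataaAGGAGTGa
Meg3 second match: ctagagcagccagtaAGGAGTGg
Mirg match: tcaactcactgggtcAGGAGTGc
Rtl1 match: ccaattggcaatgaaCCCGTCTg
The capitals lie on chromosome 12 of GRCm38 at 109561346-109561352 and 109561416-109561422 in *Meg3*, at 109740947-109740953 in *Mirg*, and at 109593225-109593231, minus strand, in *Rtl1*.

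The 300 bases around the starts that RefSeq gives differed in composition. These starts need not be those of the gene positions above: that of *Mirg* lies inside the GENCODE gene, *Meg3* has 2, and no window was used for *Rtl1*. In windows of 250 bases before to 50 after the start, *Dio3* held 25 CpG dinucleotides, *Meg3* 13 at its first start and 1 at its second, *Mirg* 10, *Dlk1* 9 and *Rian* 0, beside a median of 7 over 32851 promoters. The palindrome TGACGTCA, the core of the cyclic AMP response element, was searched as those 8 letters, which read the same on both strands. It was present in the first *Meg3* window, and neither in the second nor in the window of *Dlk1*, *Dio3*, *Rian* or *Mirg*, and 1.79% of all promoter windows held it. It began 57 bases before the first RefSeq start of *Meg3*, and the 30 bases around it, chr12:109540928-109540957 on the plus strand, are shown with the palindrome in capitals.
Meg3 promoter: gcagaatgcgcTGACGTCAaagaccacccc

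Library totals ranged from 6357343 counts in WT replicate 3 to 19151368 in WT replicate 1. Values are given as CPM, which scales each gene's count to a common library size after TMM normalization and for which 3 counts were worth 0.157 to 0.479 CPM; this floor covers counting error only. *Mir483* averaged 0.442 ± 0.129 CPM over the WT pools against 4.02 ± 1.33 CPM over the 5C pools (SD, n = 3), with no overlap. The tissue label was examined with 16 lineage markers (nerve, somite, heart, blood, gut and limb), and all 16 were detected and tested. Libraries stood apart in ways that cross the genotypes. The summed level of 12 yolk sac endoderm markers was 6892 CPM in WT replicate 1 and 1387 CPM in 5C replicate 3, against 202 to 576 CPM in the other 4 libraries. The Y-linked *Ddx3y*, transcribed in male cells, measured 0.944 CPM in WT replicate 2 and 0 in 5C replicate 2, against 41.6 to 55.9 CPM elsewhere, so these 2 pools went against their stated male sex.

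Expression across the domain was uneven. Per kb of annotated exon, *Rian* was highest, at 45.1 ± 2.62 CPM per kb in WT and 41.8 ± 5.26 in 5C (SD, n = 3). *Dlk1* (15.8 ± 4.58 in WT), *Mirg* (13.8 ± 0.513) and *Meg3* (13.0 ± 2.02) came next and did not differ from one another beyond their spread over WT libraries. *Dio3*, at 0.879 ± 0.583 CPM per kb in WT, and *Rtl1*, at 0.217 ± 0.0360, were lowest. The order was the same in 5C, where *Dlk1* and *Mirg* measured 12.8 ± 0.261 and 12.2 ± 0.607 CPM per kb. Of the level summed over the 6 genes per kb, *Rian* held 47.1% to 55.1% in each library, and *Rtl1* at most 0.425%. The non-coding genes were divided by all annotated exon bases, 18089 for *Meg3* and 18234 for *Rian*, so their levels depend on how many isoforms the annotation lists.

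**Figure D1:**
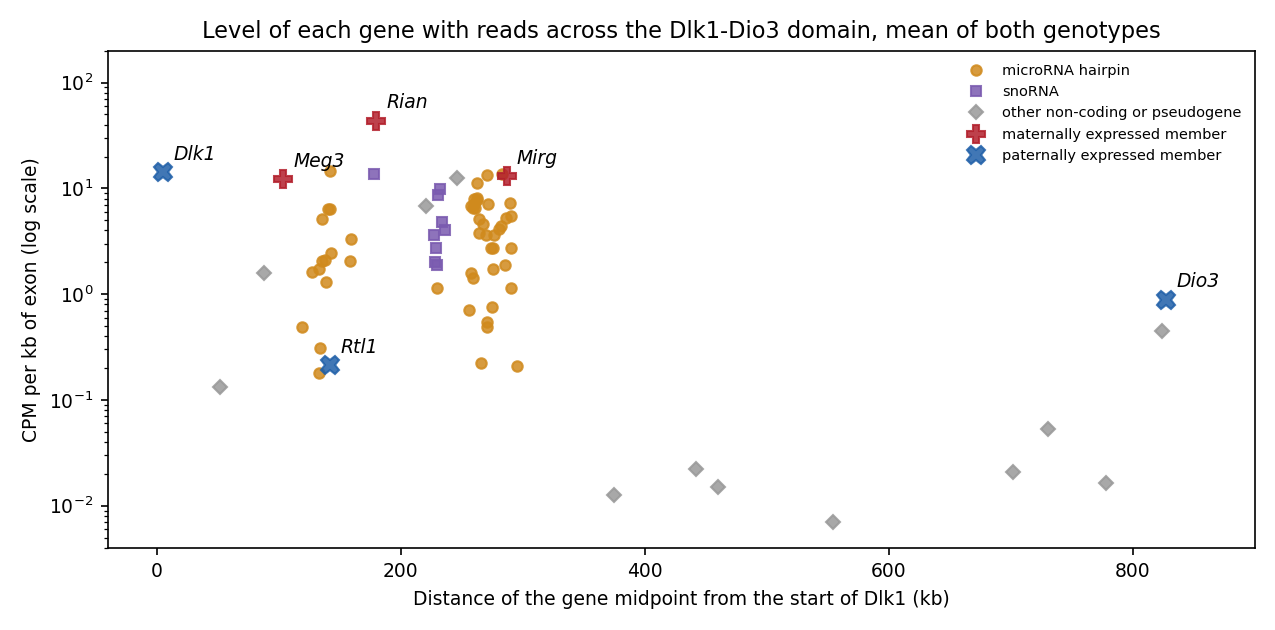
Level of every gene of the domain with reads, in CPM per kb of exon on a log axis and averaged over the 2 genotype means, against the distance of its midpoint from the start of *Dlk1*. *Dlk1*, *Meg3*, *Rian* and *Mirg* sit above 10 CPM per kb, *Dio3* and *Rtl1* below 1, and the long interval between *Mirg* and *Dio3* holds few reads.

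Among the paternally expressed genes, *Dlk1* measured 113 CPM in WT replicate 1, 61.9 in WT replicate 2 and 92.4 in WT replicate 3, and 72.0, 73.9 and 71.0 CPM in 5C replicates 1, 2 and 3. The 5C libraries were close together and fell inside the WT range, above WT replicate 2 and below the other WT libraries. WT averaged 89.2 ± 25.9 CPM and 5C averaged 72.3 ± 1.48 CPM (SD, n = 3), a coefficient of variation of 29.0% in WT and 2.04% in 5C. On the log2 scale 5C minus WT came to -0.31 (SE 0.18, 95% interval -0.70 to 0.09, edgeR, adjusted p = 0.781). In bulk embryos, fewer cells expressing *Dlk1* and less RNA per cell cannot be told apart, and this holds for every gene below.

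The value for *Dlk1* depended on single WT libraries. Without WT replicate 2 the log2 fold change was -0.52 (edgeR, unadjusted p = 4.7e-04, adjusted p = 0.255), and without WT replicate 1 it was -0.08. WT replicate 2 was also the lowest of the 6 libraries in *Igf2*, at 8.41 CPM against 16.9 and 17.1 in the other WT libraries and 9.75 to 10.48 in 5C. It is also one of the pools with little *Ddx3y*. The other, 5C replicate 2, measured 73.9 CPM of *Dlk1*. The part of these library differences in the result was not tested.

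*Rtl1* rested on few reads. Its counts were 28, 18 and 7 in WT replicates 1, 2 and 3 and 33, 10 and 16 in 5C, or 1.47, 1.55 and 1.12 CPM and 1.9997, 0.854 and 1.14 CPM. 5C replicates 1 and 2 were the highest and the lowest of all 6, and the genotypes overlapped. The means were 1.38 ± 0.229 and 1.33 ± 0.597 CPM (SD, n = 3), and the log2 fold change was -0.05 (SE 0.34, edgeR, adjusted p = 0.992). At this depth the 95% interval, -0.81 to 0.71, does not exclude a change of 1.5-fold in either direction.

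*Dio3* spread most. Its counts were 59, 17 and 5 in WT and 17, 18 and 41 in 5C, or 3.10, 1.46 and 0.798 CPM and 1.03, 1.54 and 2.92 CPM in replicates 1, 2 and 3. The high libraries were WT replicate 1 and 5C replicate 3, 1 in each genotype, and these are the libraries with the highest yolk sac endoderm marker sums. The means were 1.78 ± 1.18 and 1.83 ± 0.977 CPM (SD, n = 3), and the log2 fold change was -0.13 (SE 0.48, edgeR, adjusted p = 0.968), opposite in sign to the difference of the mean CPM. Without WT replicate 1 it was 0.60, and without 5C replicate 3 it was -0.66. The part of the marker difference in these values was not tested. The neighbouring opposite-strand transcript *Dio3os* also had its highest count in WT replicate 1, with 40 reads against 4 to 8 in each other library.

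**Figure D2:**
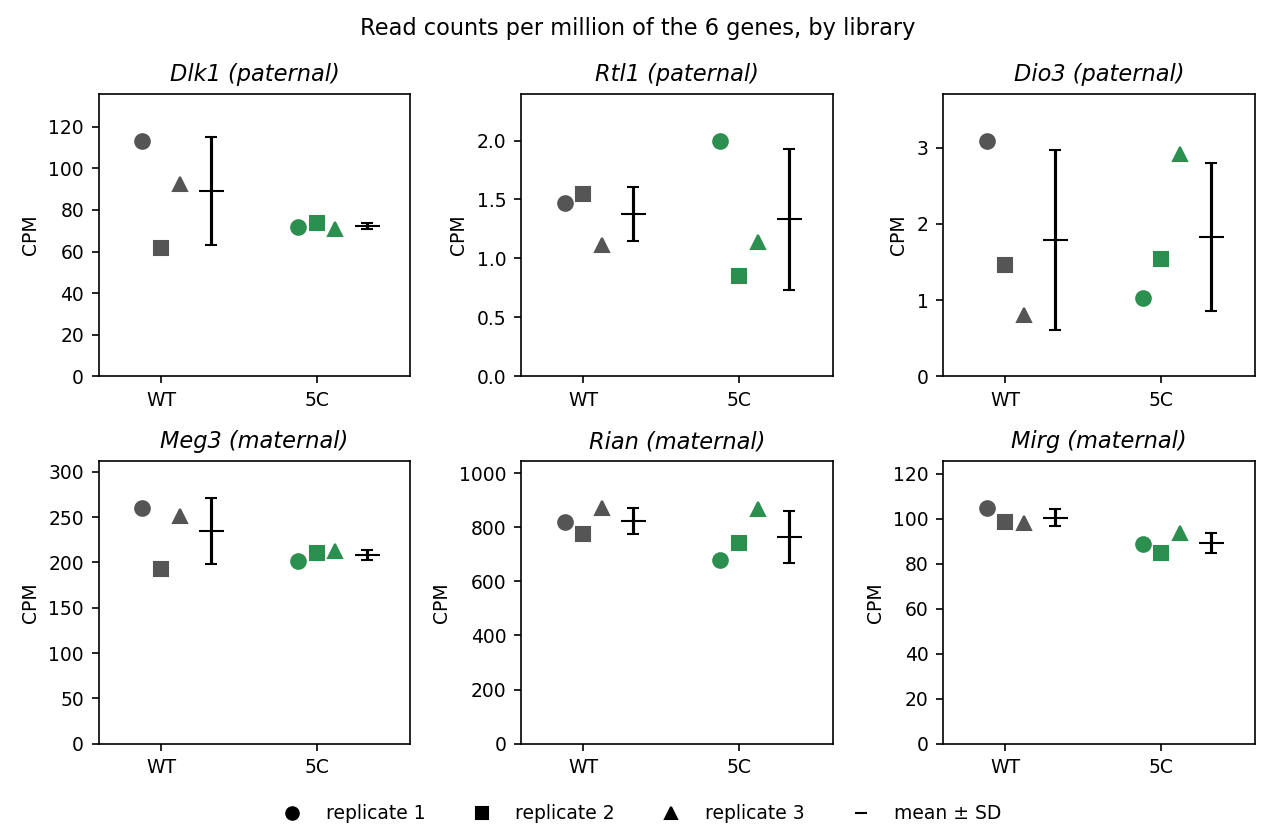
CPM of each member in every library, WT in grey and 5C in green, with replicates 1, 2 and 3 as circle, square and triangle and the mean ± SD beside them (n = 3). WT replicate 2 is low in *Dlk1* and *Meg3*, *Dio3* is high in WT replicate 1 and 5C replicate 3, and the genotypes part without overlap in *Mirg*.

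Among the maternally expressed genes, *Meg3*, a long non-coding RNA named for its maternal expression, was at 259.9, 193 and 251 CPM for WT replicates 1, 2 and 3, against 201, 210.4 and 212 CPM for 5C. As for *Dlk1*, the 5C libraries lay between WT replicate 2 and the other WT libraries. The means were 234.6 ± 36.5 and 208.0 ± 5.74 CPM (SD, n = 3), which gave a log2 fold change of -0.17 (SE 0.10, 95% interval -0.41 to 0.06, edgeR, adjusted p = 0.781). The coefficient of variation was 15.6% in WT and 2.76% in 5C. Without WT replicate 2 the log2 fold change was -0.30 (edgeR, unadjusted p = 0.0014, adjusted p = 0.311), and without WT replicate 1 it was -0.09.

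*Rian*, whose introns carry snoRNAs, was at 819.8, 775 and 871 CPM for WT, against 678, 743 and 867 CPM for 5C. 5C replicates 1 and 2 were the lowest libraries, and 5C replicate 3 was just below the highest WT library. The means, 822 ± 47.7 and 763 ± 95.9 CPM (SD, n = 3), gave a log2 fold change of -0.11 (SE 0.10, edgeR, adjusted p = 0.821). Without 5C replicate 1 it was -0.03, and without 5C replicate 3 it was -0.21. The longest annotated transcript of *Rian* had a GC content of 35.8%, and with GC-content offsets the log2 fold change was -0.23 (edgeR, unadjusted p = 0.0165, adjusted p = 0.898).

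*Mirg*, the host of the distal microRNA cluster, was the one member whose genotypes did not overlap. It was at 105, 98.5 and 98.1 CPM for WT, against 89.0, 84.7 and 93.5 CPM for 5C, so that each 5C library lay below each WT library. The means were 100.5 ± 3.74 and 89.1 ± 4.42 CPM (SD, n = 3), which gave a log2 fold change of -0.17 (SE 0.07, 95% interval -0.33 to -0.02). Its p in edgeR was 0.0305 before and 0.781 after adjustment, so the difference did not pass the correction over all genes. Leaving out each library in turn gave -0.21 to -0.14.

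None of the 6 members was called, a call being an adjusted p under 0.05 with a fold change over 1.5, and none of the 16784 genes tested was called either (0%), while 1011 had an unadjusted p under 0.05 in edgeR (DESeq2 called 11 genes). Even *Mir483*, the gene of the array, was not called, at a log2 fold change of 3.05 (edgeR, unadjusted p = 1.0e-05, adjusted p = 0.169). A gene without a call is therefore not shown to be unchanged. One member, *Mirg*, had an unadjusted p under 0.05, as did 6.02% of all genes, and 3.47% in the lower direction. One of 6 did not overlap between genotypes, beside 11.4% of all genes, and 5.1% lower in 5C. All 6 had a log2 fold change below 0, a sign that 50.7% of all genes had. The median over the 6 members was -0.15, beside -0.0024 over all genes tested. The signs of *Dio3* and *Rtl1* were not stable. *Dio3* had the higher mean CPM in 5C and turned positive without WT replicate 1 or 5C replicate 1, and *Rtl1* turned positive in 5 of its alternatives.

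**Figure D3:**
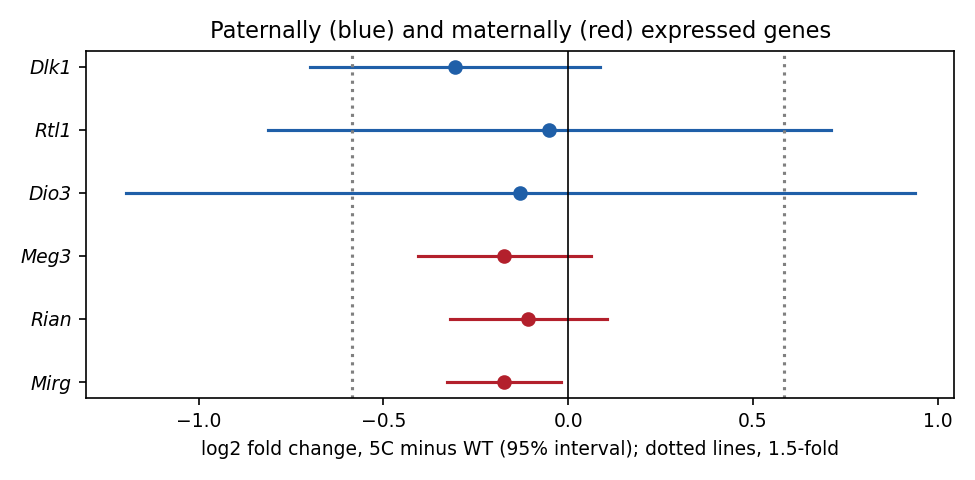
Log2 fold change of 5C minus WT for each member with its 95% interval from edgeR; dotted lines mark a 1.5-fold change in either direction. The maternally expressed genes (red) have narrow intervals inside the dotted lines, and of the paternally expressed genes (blue) those of *Rtl1* and *Dio3* reach past both lines.

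The classes were then compared with each other. The median log2 fold change was -0.13 over the 3 paternally expressed and -0.17 over the 3 maternally expressed genes. The log2 ratio of summed maternal to summed paternal level, both per kb, was 1.76, 2.48 and 2.15 in WT replicates 1, 2 and 3 and 2.16, 2.20 and 2.35 in 5C. In every library *Dlk1* made up most of the summed paternal level and *Rian* most of the summed maternal level. This ratio therefore mainly weighed *Rian* against *Dlk1*, and *Rtl1* and *Dio3* added little to it. WT replicates 1 and 2 gave the extremes and enclosed all 5C libraries. They were also the highest and the lowest library in *Dlk1*, at 113 and 61.9 CPM. The means were 2.13 ± 0.364 and 2.23 ± 0.0991 (SD, n = 3), a difference of 0.10 that was smaller than the spread within WT. Its sign was not stable, since it was -0.08 without WT replicate 1 and, with all libraries, -0.06 when the log2 values of the genes of each class were averaged in place of summing levels.

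*Meg3* and *Dlk1*, the neighbours on either side of the control element, gave a similar picture. Their ratio is not independent of the class ratio, because *Dlk1* is nearly the whole denominator of both. The likeness is therefore no separate evidence about the classes. The log2 ratio of *Meg3* to *Dlk1* per kb was -0.48, -0.04 and -0.23 in WT and -0.19, -0.17 and -0.10 in 5C. The 5C libraries again lay within the WT range, and the difference of the means, 0.10, became -0.02 without WT replicate 1. Among the non-coding genes the ratio of *Rian* to *Mirg* varied least in WT, with log2 values of 1.65, 1.65 and 1.83 in WT and 1.61, 1.81 and 1.89 in 5C. In 5C the log2 ratio of *Mirg* to *Meg3* varied least, with an SD of 0.0764 against 0.145 for *Rian* to *Mirg*.

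**Figure D4:**
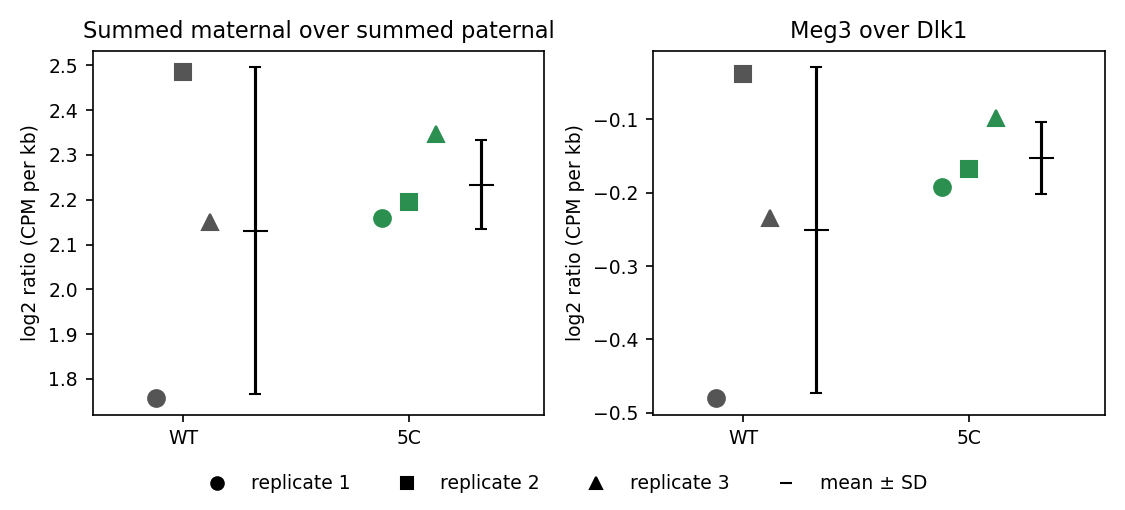
Log2 ratio of summed maternally to summed paternally expressed genes (left) and of *Meg3* to *Dlk1* (right), from CPM per kb, in each library with the mean ± SD (n = 3). WT replicates 1 and 2 are the lowest and highest points in both panels, and every 5C library lies between them. *Dlk1* makes up most of the summed paternal level, so the panels are not independent.

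Across the 6 libraries, *Dlk1* and *Meg3* varied together although they are expressed from opposite parental copies. Of the 15 pairs of members, theirs had the highest Pearson correlation, r = 0.965 (exact permutation p = 0.00556, 0.0833 after adjustment over 15 pairs), with Spearman's rho = 0.829 (exact permutation p = 0.0583, 0.875 after adjustment). The pair therefore did not pass the correction. Without WT replicates 1 and 3, the libraries farthest from the median of *Dlk1*, r was 0.843, and after removing the genotype means it was 0.957. Within 5C, where both genes hardly varied, r was 0.04 over 3 libraries. No other pair had an adjusted p below 0.762, and *Meg3* correlated with *Rian* at 0.583 and with *Mirg* at 0.585.

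**Figure D5:**
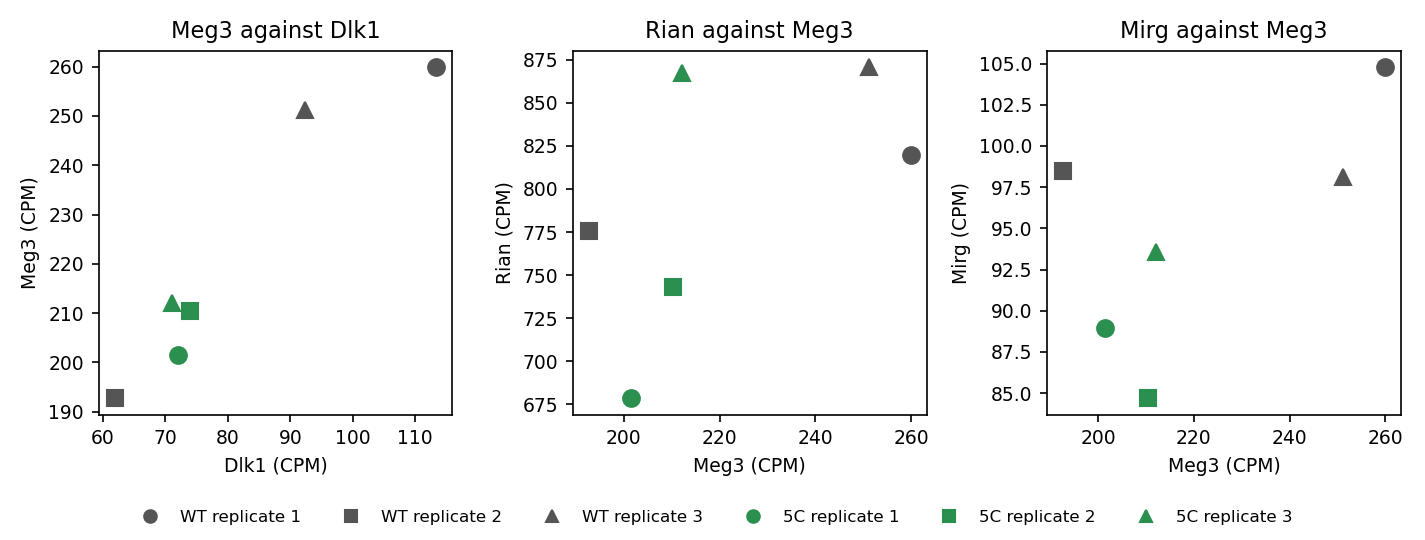
CPM of *Meg3* against *Dlk1*, of *Rian* against *Meg3* and of *Mirg* against *Meg3* in the 6 libraries; axes do not start at 0. *Dlk1* and *Meg3* rise together from WT replicate 2 through the 5C libraries to WT replicates 3 and 1, while *Rian* and *Mirg* follow *Meg3* loosely.

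Among 10349 genes with a mean of at least 10 CPM, the profiles most like that of *Dlk1* over the 6 libraries were *E2f7* (r = 0.990), *Plagl1* (0.987), *Fam222b* (0.987), *Col6a3* (0.986) and *Osbpl6* (0.985). *Meg3* came at rank 30 and *Igf2* at rank 67 with r = 0.947. Those most like *Meg3* were *Lrp5* (0.986), *Fzd4* (0.983), *Fat1* (0.983), *Sik3* (0.978) and *Map3k1* (0.975), with *Igf2* at rank 14 (0.971) and *Dlk1* at rank 20. *Mirg* and *Rian* came at ranks 1884 and 2683 for *Dlk1* and at ranks 1622 and 1639 for *Meg3*. With 6 libraries such values are common, as 214 genes exceeded 0.9 with *Dlk1* and 169 with *Meg3*, and the same 6 libraries also differ in depth and in yolk sac markers.

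The rest of the domain was read from the annotation. Between the start of *Dlk1* and the end of *Dio3* lay 118 annotated genes, of which 116 were in the table, 78 had at least 1 read and 18 passed the filter. Of those 18, 16 had a log2 fold change below 0, beside 50.7% of all genes, 4 had an unadjusted p under 0.05 (6.02% of all genes), 4 did not overlap (11.4% of all genes), and none was called. Without WT replicate 1 it was 14 of 16, and without a count filter 56 of 78. Most of the 18 lie along the maternally expressed strand and may share transcripts, so they are not independent.

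Between *Rian* and *Mirg* are *Gm37899* and *B830012L14Rik*, non-coding transcripts of the plus strand. *Gm37899* was at 61.5, 58.8 and 72.4 CPM for WT, against 47.6, 56.3 and 58.3 CPM for 5C, with a log2 fold change of -0.24 (edgeR, unadjusted p = 0.0443). *B830012L14Rik* was at 61.75, 54.2 and 68.9 CPM for WT, against 48.2, 48.8 and 55.6 CPM for 5C, with a log2 fold change of -0.27 (edgeR, unadjusted p = 0.0241). The first did not overlap between genotypes and the second did, and both had an adjusted p of 0.781, as *Mirg* had.

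MicroRNA hairpins were seen only as reads of longer transcripts, since mRNA libraries do not capture mature microRNAs. Of 67 annotated hairpins, 51 had reads and 8 were tested, 7 of them with a log2 fold change below 0. *Mir679* was at 0.997, 1.202 and 0.957 CPM for WT, against 0.667, 0.768 and 0.427 CPM for 5C, with 6 to 19 reads in each library and a log2 fold change of -0.77 (edgeR, unadjusted p = 0.0434, adjusted p = 0.781). Its neighbour *Mir494* (-0.74) did not overlap either, and *Mir453* (-0.68), *Mir432* (-0.43), *Mir1193* (-0.39), *Mir654* (-0.02), *Mir323* (-0.01) and *Mir1197* (0.01) overlapped. All 59 plus-strand hairpins together gave 23.9, 20.8 and 17.4 CPM for WT, against 19.9, 13.9 and 13.6 CPM for 5C, where 5C replicate 1 reached into the WT range. Of 23 snoRNAs 2 were tested, with log2 fold changes of 0.06 for *Gm24564* and -0.59 for *Gm23787*, and the sum of all snoRNAs over the domain ranged from 3.83 to 4.29 CPM in WT and from 3.15 to 4.06 CPM in 5C. Exons of *Mirg* overlap 9 annotated genes of the same strand, and so do exons of *Rian*, most of them hairpins or snoRNAs. Reads shared with the host may not be assigned there, so a count of 0 does not show that no transcript was made.

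The 6 hairpins antisense to *Rtl1* gave 75, 41 and 12 reads in WT and 42, 23 and 28 in 5C. All 516 of their bases lie under *Rtl1* exons, 8.12% of the exon length. Per kb the hairpins averaged 6.05 ± 2.07 CPM over WT and 4.2003 ± 0.635 CPM over 5C (SD, n = 3), beside 0.217 and 0.209 CPM per kb for *Rtl1* itself. The density on the maternal strand was therefore 15.7 to 33.0 times that of *Rtl1* in each of the 6 libraries, with both extremes (5C replicate 1 and WT replicate 1) resting on at least 28 reads of *Rtl1*. The lengths were annotated bases. Reads reaching past the ends of a hairpin, which raise the density of short genes most, were not corrected for. The sums of the genotypes overlapped. Counts that ignored strand would have dropped reads shared by the hairpins and *Rtl1*, whereas every library held reads of the hairpins. The setting used for strand is not given in the sources used here.

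Outside the domain, 22 genes lay within 500 kb on either side and 8 were tested, 2 of them with a log2 fold change below 0. The only one with an unadjusted p under 0.05 was *Dync1h1*, which encodes the heavy chain of cytoplasmic dynein. It was at 695, 654 and 719 CPM for WT, against 592, 575 and 599.96 CPM for 5C, without overlap, and had a log2 fold change of -0.23 (edgeR, unadjusted p = 0.00645, adjusted p = 0.781).

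Pathways in which the members act were described from lists. No gene of any list was called. Of 14 genes listed for the setting, upkeep or erasure of imprints, 12 were tested, and 9 were lower and 3 higher by sign, none with an unadjusted p under 0.05, and the median was -0.07. The smallest p belonged to *Uhrf1* (-0.22), which brings the maintenance methyltransferase to replicating DNA, *Tet3* (-0.18), which oxidises methylcytosine, and *Trim28* (-0.14), the corepressor recruited at imprint control elements.

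Of 20 Notch pathway genes, which *Dlk1* may modulate, 19 were tested, with 7 below and 12 above 0 and a median of 0.04. The receptor *Notch2* was at 149, 127 and 157 CPM for WT, against 118, 115 and 124 CPM for 5C, a log2 fold change of -0.28 (edgeR, unadjusted p = 0.00879, adjusted p = 0.781). *Nrarp*, a target and feedback inhibitor of Notch, was 0.22 higher (edgeR, unadjusted p = 0.0115), and neither gene overlapped between genotypes. *Maml1*, a coactivator, was at -0.40 with overlap (edgeR, unadjusted p = 0.0327). Such a p was thus found for 2 lower genes and 1 higher gene of the list, beside 3.47% and 2.55% of all genes in each direction, and 6.26% of all genes were higher in 5C without overlap.

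Of 12 thyroid hormone genes, the system in which *Dio3* acts, 9 were tested, with 8 below 0 and a median of -0.06. In this list 1 gene had an unadjusted p under 0.05 in edgeR, lower in 5C, beside 3.47% of all genes. The genotypes did not overlap in 2, beside 11.4% of all genes. The receptor *Thrb* was at -0.34 without overlap and the activating deiodinase *Dio2* at -0.30 with overlap, both with an unadjusted p above 0.05. Of 10 other genes derived from the same retrotransposon family as *Rtl1*, 8 were tested, with 3 below 0 and a median of 0.06. *Peg10*, itself paternally expressed and needed in the placenta, was at 478, 269.9 and 436 CPM for WT, against 272, 271 and 296 CPM for 5C (log2 fold change -0.50, edgeR, unadjusted p = 0.0173, adjusted p = 0.781), so that WT replicate 2 lay beside the 5C libraries and apart from the other WT libraries. *Rtl8b* (0.35) and *Rtl3* (0.56) were higher by sign.

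Other tissues that an embryo sample can hold were read from marker lists. All 12 yolk sac endoderm markers had a log2 fold change below 0, with a median of -2.09, and their sums ranged from 292 to 6892 CPM in WT and from 202 to 1387 CPM in 5C. Hepatoblast markers, which share *Afp* and *Ttr* with that list, gave 8 of 8 tested below 0, and sums from 143 to 3483 and from 122 to 739.6 CPM. Trophoblast markers summed to 5.74 to 10.48 CPM in WT and 3.59 to 15.4 CPM in 5C, with *Synb* at 0 in every library, and decidua markers to 43.0 to 86.5 and 51.0 to 88.2 CPM. Over all libraries the decidua sum included 17.4 to 26.2 CPM of *Hand2* and 13.1 to 15.5 CPM of *Wnt4*. *Hand2* is also among the 16 lineage markers, so the sum is not a level of decidua alone. Of 7 decidua markers tested 5 were above 0, with a median of 0.38, and those with an unadjusted p under 0.05 in edgeR were the granzymes *Gzmg* (2.24) and *Gzmf* (1.63). Of the 16 lineage markers of the embryo 9 were below 0, with a median of -0.04. An unadjusted p under 0.05 in edgeR was found for 2 lower and 2 higher ones, beside 3.47% and 2.55% of all genes. The genotypes did not overlap in 4, beside 11.4% of all genes. The smallest p belonged to the heart gene *Myh6* (-0.85), the neural gene *Sox2* (0.25) and the mesenchyme gene *Twist1* (0.21). The heart genes *Tnnt2* (-0.18) and *Nkx2-5* (-0.06) of the list overlapped between genotypes. WT replicate 1 was the highest library in the yolk sac sum and in *Dlk1*, *Dio3*, *Meg3* and *Mirg*. 5C replicate 3, the next in that sum, was the highest 5C library in *Dio3*, *Meg3*, *Rian* and *Mirg* but the lowest 5C library in *Dlk1*. The part of these tissues in the members' values was not tested.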

How the data were processed

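The authors prepared stranded poly(A) libraries, sequenced them single-end, mapped them with STAR onto GRCm38, and deposited raw counts for each Ensembl gene. Symbols, positions and exon lengths came from a GENCODE annotation of GRCm38, which held 55141 of the 55401 identifiers, and sequences came from RefSeq and GENCODE.

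From the counts, edgeR 4.0.16 (R 4.3.3) was run with filterByExpr on genotype, TMM scaling and the legacy quasi-likelihood F-test, with two-sided p-values adjusted by Benjamini-Hochberg over 16784 genes. The standard error was the log2 fold change divided by the square root of F. The biological coefficient of variation was 13.6%. Ratios used CPM per kb. The fit was tested on simulated data. Counts in each library limit the precision, least so for *Rian* and most for *Rtl1* and *Dio3*.

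Genotype and replicate came from the sample titles. Members and lists were chosen with earlier results of these data known. Named were the 6 members, *Mir483*, *Igf2*, every tested gene of the domain, neighbours within 500 kb with an unadjusted p under 0.05, the 5 genes most like *Dlk1* and *Meg3*, and at most 3 genes per list with the smallest p. *Ddx3y*, *Dio3os*, *Synb*, *Tnnt2*, *Nkx2-5*, *Hand2* and *Wnt4* were added with their values known. One gene that the rule would name is not reported here. The alternatives comprised other scalings, filters and tests (DESeq2 1.42.0, limma-voom), a replicate block, GC-content offsets and each library left out.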

Additional observations from a re-analysis of the deposited data

How the results depend on the processing

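No member was called under any of the 17 alternatives. *Dlk1*, *Meg3*, *Rian* and *Mirg* stayed below 0 in all of them. *Rtl1* turned positive with GC-content offsets (0.00035), with the replicate block and GC-content offsets (0.00855), and without WT replicate 2 (0.02), 5C replicate 2 (0.16) or 5C replicate 3 (0.06), and *Dio3* without WT replicate 1 (0.60) or 5C replicate 1 (0.20). With each library left out in turn, log2 fold changes ranged from -0.52 to -0.08 for *Dlk1*, -0.30 to -0.09 for *Meg3*, -0.21 to -0.03 for *Rian*, -0.21 to -0.14 for *Mirg*, -0.49 to 0.16 for *Rtl1* and -0.66 to 0.60 for *Dio3*, and tested genes of the domain below 0, a count followed across settings only after the data were seen, from 14 to 23. The maternal to paternal difference, 0.10 with all libraries, then ranged from -0.08 to 0.28, and averaging log2 values gave -0.06. The lowest adjusted p of any member was 0.0615, for *Dlk1* without a count filter, where 319 genes of the table were called. Same-numbered libraries correlated at -0.17, 0.20 and -0.17, so the numbers were not taken as pairs; with the replicate block, *Dlk1* was at -0.27 and *Mirg* at -0.18, and no call changed. *Rtl1* and *Dio3* gave no value with at least 10 counts in every sample. The causes were not tested.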
